A study of Mus musculus with 10 samples.

Results

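The genes described here are 10 enzymes and transporters of antioxidant defence and glutathione supply, chosen by symbol: Sod1, Sod2, Gpx1, Gpx4, Prdx1, Prdx5, Hmox1, Gclc, Slc7a11 and Txnrd1. They are 10 of the 34254 genes in the deposited count matrices. All 10 had enough counts to be tested for a change after injury, among 14234 genes tested.

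Retinal ganglion cells (RGCs) were profiled by droplet single-cell RNA sequencing from wild-type 129S1/SvImJ mice of both sexes at 12 weeks of age, either uninjured or 2 weeks after optic nerve crush (ONC). Each batch pooled 10 retinas, macrophages and amacrine cells were removed by immunopanning, and cells bound through Thy1 were loaded at 6000 per run. The 6 uninjured libraries held 1683 cells and the 4 injured libraries 1609, of which 1188 had distinct barcodes. The paper states the same number of uninjured RGCs but fewer than 1609 injured ones. Library totals ran from 2839693 to 23180399 unique molecular identifiers (UMIs, each marking 1 captured RNA molecule) in the uninjured group and from 4698799 to 8860536 in the injured group.

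Some libraries were not independent or stood apart. Injured 3 and injured 4 shared 421 cell barcodes, and were therefore averaged into a single sample, injured 3/4, which leaves 3 injured samples. The uninjured libraries fell into 3 pairs of like libraries, numbered 1 and 2, 3 and 4, and 5 and 6. Injured 1 and injured 2 were likewise more like each other than either was like injured 3 or 4. Uninjured 5 and 6 stood apart from the other uninjured libraries, and Malat1, a nuclear RNA, made up a median of 1.72% and 1.83% of the UMIs per cell there against 3.13% to 4.82% in uninjured 1 to 4 and 6.37% to 7.78% in the injured libraries. Xist, an RNA of female cells, was found in injured 1 (62.1% of cells with a UMI) and injured 2 (67.4%), and elsewhere in no more than 0.569% of a library's cells. Although mice of both sexes are named, cells with Xist were thus not balanced between the uninjured and injured groups. UMIs of an mCherry sequence were present in 7.99%, 15.02%, 86.0% and 84.3% of cells in injured 1 to 4 and absent from the uninjured libraries, and the labels name no vector for these samples. The labels do not say that the libraries are separate animals, so the p-values measure the spread between samples.

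Superoxide dismutases turn superoxide into hydrogen peroxide, which catalase, glutathione peroxidases and peroxiredoxins then reduce. Glutathione is made from cysteine, much of it imported as cystine, while thioredoxin and thioredoxin reductase keep peroxiredoxins in their reduced form. RGCs have long axons with a high demand for mitochondrial energy, and most of them die after their axons are crushed in the optic nerve.

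The label of the cells was checked against 10 RGC markers, all of which were tested. Their summed level ran from 6634 to 8950 CPM (UMIs of a gene relative to the sample's total, scaled by library size factors) in the uninjured libraries and was 4787, 5379 and 5872 in injured 1, injured 2 and injured 3/4, and by group mean Sncg was the most abundant uninjured and Tubb3 injured. After injury 7 of the 10 were lower, among them Pou4f2 and Rbpms, and Tubb3 was higher. Markers of Müller glia and astrocytes, led by Aldoc in uninjured and Clu in injured samples, summed to 444 to 1007 CPM in uninjured and 345 to 514 CPM in injured samples, with 4 of 8 tested genes higher and 3 lower. Aldoc itself was at 225 to 753 and 38.7 to 44.2 CPM, whereas Clu was at 67.7 to 126 and 195 to 335 CPM. Sox9 was at most 0.601 CPM in uninjured and 11.8 to 13.7 CPM in injured samples, and Rlbp1 at most 5.34 and 8.85 to 11.2 CPM. Amacrine markers, led by C1ql1 in uninjured and C1ql2 in injured samples, summed to 78.8 to 293 and 280 to 388 CPM (2 of 8 higher). C1ql2 alone was at 7.47 to 28.7 and 183 to 215 CPM, and 6 of the other 7 had lower means after injury, none past the threshold. Photoreceptor markers, led by Sag in uninjured and Pde6b in injured samples, summed to 2.52 to 19.3 and 10.0 to 31.2 CPM. Of the 2 tested, Pde6b was higher (log2 fold change 4.76, adjusted p = 6.94e-07) and Sag was at 0.53 (adjusted p = 0.570). Bipolar and endothelial markers were at most 7.36 and 7.07 CPM in any sample, and none could be tested. How much these cells contribute to the results below was not tested. Some values from refits in cells without markers of another class are given below. RNA summed over the cells of a library cannot tell fewer cells of a type from less RNA per cell.

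Of the 10 genes, 4 passed the threshold of an adjusted p of 0.05 in edgeR's quasi-likelihood test, beside 43.8% of all genes tested. Hmox1 and Txnrd1 were higher, beside 21.3% of all genes, and Sod1 and Sod2 were lower, beside 22.5%. For the same 4 genes the CPM of the injured and uninjured samples did not overlap, which held for 42.9% of all genes tested. These shares are near the background, so the number of genes that changed says nothing particular about them. The counts of the gene lists below stand beside the same shares of all genes. Permuting the samples' log2 CPM (exact, two-sided) gave p = 0.0238 for each of the 4, the smallest value that 84 assignments of 9 samples can give. The test takes all 9 as exchangeable, although some libraries were alike in pairs.

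**Figure D1:**
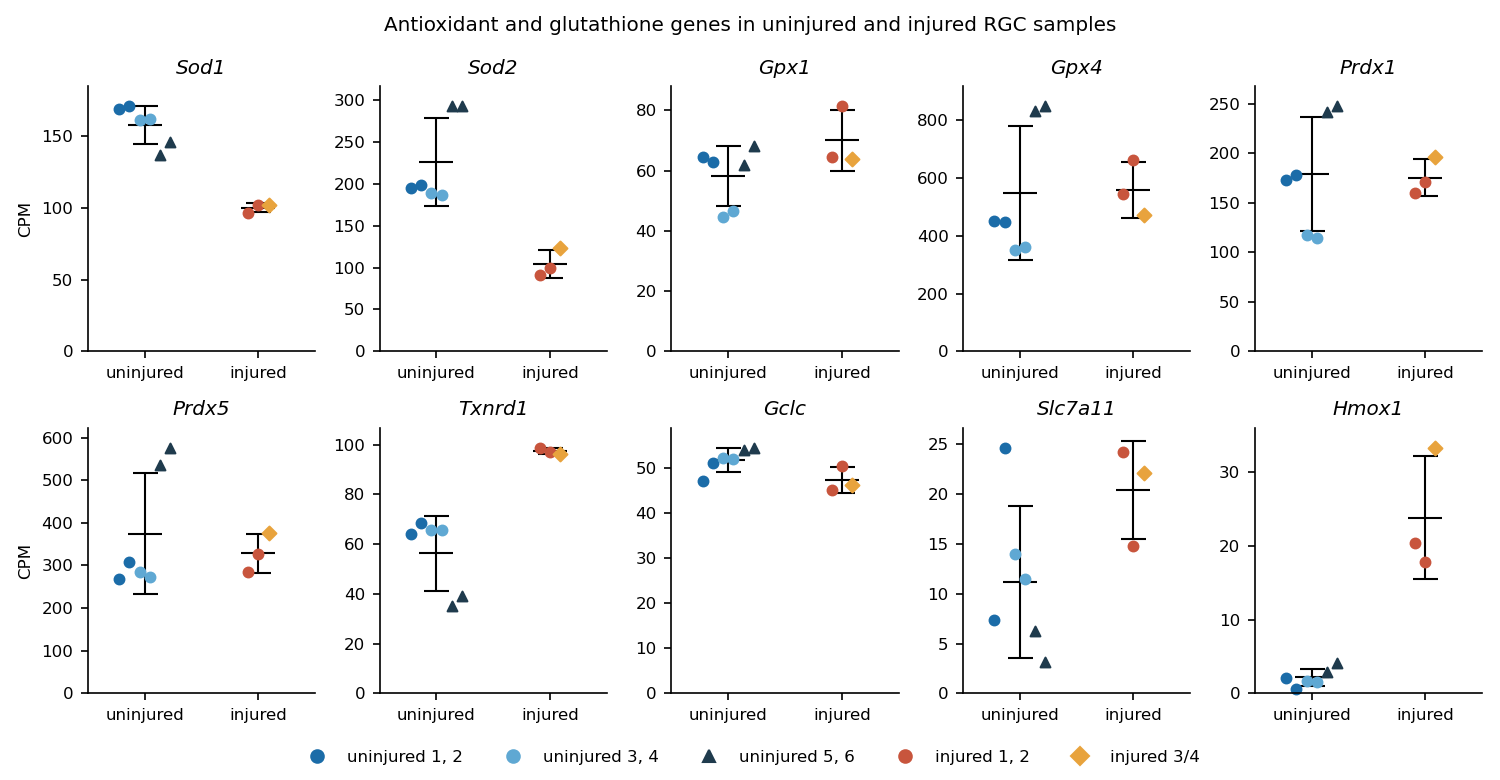
CPM (linear axis from 0) of the 10 genes in each of 6 uninjured and 3 injured samples, 1 point per sample, with bars for the mean and SD of each group. Hmox1 reached at most 4.08 CPM in the uninjured samples and 17.8 to 33.3 in the injured ones, while Sod1 and Sod2 lay below every uninjured sample after injury.

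Sod1 encodes the copper and zinc superoxide dismutase of the cytosol. Its gene lies at chr16:90017408-90027657 on the plus strand of mm39. The lowest, median and highest uninjured samples were at 137, 162 and 171 CPM, and injured 1, injured 2 and injured 3/4 were at 96.6, 102.2 and 101.9 CPM. Every injured sample was below every uninjured sample, and the uninjured samples nearest to them were uninjured 5 and 6. Sod1 fell by 0.65 on the log2 scale (SE 0.12, edgeR adjusted p = 0.00104), to 63.5% of the uninjured level. Among cells with 3% to 5% Malat1 UMIs, Sod1 no longer passed the threshold (log2 fold change -0.40, adjusted p = 0.110). That setting kept 35 and 41 cells in uninjured 1 and 2, and only 7 and 8 in uninjured 5 and 6.

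Sod2 encodes the manganese superoxide dismutase of mitochondria and lies at chr17:13224095-13259591 (mm39, plus strand). Uninjured samples ran from 186 through a median of 196 to 293 CPM, and the 3 injured samples were at 91.0, 99.1 and 123 CPM. All injured samples were again below all uninjured ones, and uninjured 5 and 6 were the highest. Sod2 fell by 1.11 on the log2 scale (SE 0.21, adjusted p = 0.00108), to 46.4% of the uninjured level. The log2 difference of the injured mean was -0.92 against the first pair of uninjured libraries (1 and 2), -0.85 against the next (3 and 4) and -1.50 against the last (5 and 6). For Sod1 the same differences were -0.76, -0.69 and -0.50, so both genes were lower against each pair. Of the dismutase list, 3 of 4 genes were tested and 2 were lower, beside 22.5% of all genes, with a median log2 fold change of -0.65 beside -0.03 over all genes tested. The remaining tested gene was Ccs, the copper chaperone of Sod1 (log2 fold change 0.17, adjusted p = 0.491), and Sod3, the extracellular form, had too few counts to be tested.

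Gpx1, Gpx4, Prdx1 and Prdx5, which reduce the peroxide formed by dismutases, did not pass the threshold. Gpx1 is the abundant cytosolic glutathione peroxidase (chr9:108216102-108217546, mm39, plus strand). Its lowest, median and highest uninjured samples were at 44.7, 62.4 and 68.2 CPM, beside 64.5, 81.6 and 64.0 CPM in the injured samples. The groups overlapped, and uninjured 3 and 4 were the lowest. The log2 fold change was 0.27 (SE 0.16, adjusted p = 0.200, exact permutation p = 0.190). Gpx1 passed as higher with limma-voom (0.44, adjusted p = 0.0158) and among cells with 3% to 5% Malat1 UMIs (0.81, adjusted p = 0.0132).

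Gpx4 reduces lipid peroxides in membranes and is the enzyme that holds back ferroptosis (chr10:79883000-79892273, mm39, plus strand). Uninjured samples ran from 350 through a median of 448 to 849 CPM, and injured samples were at 543, 662 and 471 CPM. Uninjured 5 and 6 were far above the other 4, so that the injured samples lay between the uninjured pairs. The pooled log2 fold change of 0.03 (SE 0.31, adjusted p = 0.951) combined 3 unlike differences, 0.30 against the pair 1 and 2, 0.64 against 3 and 4, and -0.60 against 5 and 6. Without uninjured 5 and 6 the log2 fold change of Gpx4 was 0.47 and passed the threshold (adjusted p = 0.0140), and with uninjured 5 and 6 as the only uninjured samples it was -0.58 and passed as lower (adjusted p = 0.00570).

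Prdx1, a cytosolic peroxiredoxin (chr4:116532123-116558398, mm39, plus strand), was at 115, 175 and 248 CPM in its lowest, median and highest uninjured samples and at 159, 171 and 196 CPM after injury. Prdx5, which is also found in mitochondria and peroxisomes (chr19:6884065-6887792, mm39, minus strand), was at 268, 297 and 576 CPM and at 284, 328 and 375 CPM. Injured values lay inside the uninjured range for both genes, with uninjured 5 and 6 the highest samples. The log2 fold changes were -0.02 (adjusted p = 0.947) and -0.19 (adjusted p = 0.622). Prdx1 differed by -0.01, 0.59 and -0.49 from the 3 uninjured pairs in the order given above, and Prdx5 by 0.19, 0.23 and -0.76. Against uninjured 5 and 6 alone both passed the threshold as lower (Prdx1 -0.47, adjusted p = 0.00548; Prdx5 -0.75, adjusted p = 0.000578), and without those libraries the values were 0.28 and 0.21.

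**Figure D2:**
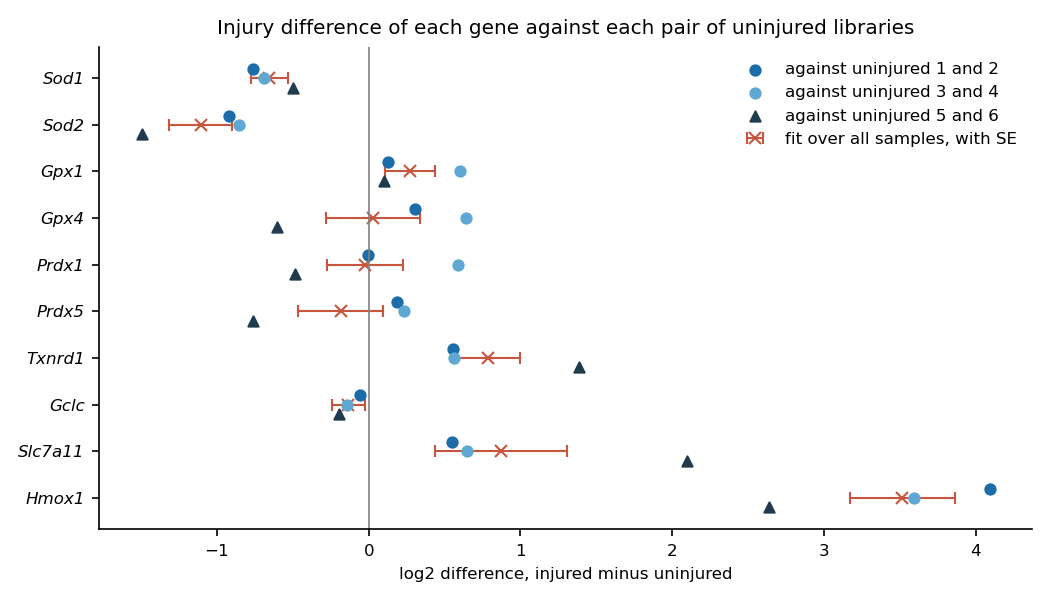
Log2 difference of the injured mean from each of the 3 pairs of similar uninjured libraries for the 10 genes (points), with the log2 fold change over all samples and its SE (crosses and bars). Gpx4, Prdx1 and Prdx5 were at -0.60, -0.49 and -0.76 against uninjured 5 and 6, while the other 7 genes kept 1 direction against every pair.

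Among the other glutathione peroxidases, Gpx7, a peroxidase of the endoplasmic reticulum, was higher after injury (log2 fold change 1.35, adjusted p = 0.00526), at 4.03, 5.17 and 4.16 CPM beside at most 2.57 CPM in an uninjured sample. Gpx3, the secreted form, had a log2 fold change of 0.39 (adjusted p = 0.280), while Gpx2, Gpx5, Gpx6 and Gpx8 had too few counts to be tested. Of the list of catalase and glutathione peroxidases, 1 of 5 tested genes was higher and none was lower, with a median of 0.27. Catalase itself, Cat, was at -0.13 (adjusted p = 0.548).

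Of the other peroxiredoxins, Prdx6 was higher (0.59, adjusted p = 0.0443), but passed the threshold in only 16 of 32 alternative settings. Leaving out uninjured 1, 2, 3 or 4, or injured 1 or 2, each ended the call, with adjusted p = 0.0656, 0.0633, 0.0631, 0.0595, 0.0916 and 0.147. The log2 fold change of Prdx6 in those fits ran from 0.53 to 0.63. Prdx2, Prdx3 and Prdx4 had log2 fold changes of -0.28, 0.25 and 0.04 and did not pass. Sulfiredoxin, Srxn1, returns overoxidised peroxiredoxins to their active form. It was at 75.1, 82.3 and 121 CPM in the lowest, median and highest uninjured samples and at 347, 321 and 301 CPM after injury. Injured and uninjured samples were far apart, and Srxn1 rose by 1.79 on the log2 scale (SE 0.17, adjusted p = 8.16e-06). In this list 2 of 7 tested genes were higher, beside 21.3% of all genes, and none was lower, with 1 higher under upper-quartile scaling. Its median log2 fold change of 0.04 became -0.02 with library totals alone and -0.00 with upper-quartile scaling.

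Txnrd1 encodes the cytosolic thioredoxin reductase, a selenoprotein (chr10:82669785-82733546, mm39, plus strand). Uninjured samples ran from 35.3 through a median of 64.8 to 68.3 CPM, and injured samples were at 98.7, 96.9 and 96.3 CPM. Every injured sample was above every uninjured sample, and uninjured 5 and 6 were the lowest. Txnrd1 rose by 0.79 on the log2 scale (SE 0.21, adjusted p = 0.00948), which is 1.72-fold. The difference was 0.55 and 0.57 against the uninjured pairs 1 and 2, and 3 and 4, and 1.39 against uninjured 5 and 6. With similar libraries summed into single samples the value was 0.78 and did not pass the threshold (adjusted p = 0.0633).

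Of the thioredoxin list, 5 of 6 genes were tested. Txn1, the cytosolic thioredoxin that Txnrd1 reduces, was also higher (0.58, adjusted p = 0.0117). Its call was lost with similar libraries summed (adjusted p = 0.103), in cells without markers of another class (0.0739), and with injured 1 and 2 alone, in all cells (0.0552) or those without mCherry (0.0748). The log2 fold changes of Txn1 in that order were 0.62, 0.53, 0.50 and 0.46. Txnrd3, a reductase best known from testis, was lower, at 5.61, 6.97 and 9.65 CPM after injury beside 18.6 CPM in the lowest uninjured sample (log2 fold change -1.54, adjusted p = 5.83e-05). The mitochondrial genes Txn2 (0.23, adjusted p = 0.569) and Txnrd2 (-0.45, adjusted p = 0.119) did not pass, and Txnip was not tested. Without uninjured 5 and 6, Txn2 passed as higher (0.71, adjusted p = 1.98e-04), and against those 2 alone as lower (-0.41, adjusted p = 0.00821). The list thus had 2 genes higher and 1 lower, with a median of 0.23.

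Gclc, Slc7a11 and their neighbours in the pathway supply glutathione. Gclc encodes the catalytic subunit of glutamate-cysteine ligase, the rate-limiting enzyme of glutathione synthesis (chr9:77661797-77701770, mm39, plus strand). It was at 47.2, 52.2 and 54.6 CPM in the lowest, median and highest uninjured samples and at 45.2, 50.6 and 46.4 CPM after injury. It varied little between samples, and the groups overlapped only through uninjured 1, the lowest uninjured sample. The log2 fold change was -0.13 (SE 0.11, adjusted p = 0.345), while the exact permutation test gave p = 0.0476. Gclm, the modifier subunit, was at -0.22 (adjusted p = 0.124) with no overlap between the groups.

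Slc7a11 encodes the light chain of the cystine and glutamate exchanger (chr3:49846975-50398070, mm39, minus strand). Its uninjured samples ran from 3.17 through a median of 9.44 to 24.6 CPM, and injured samples were at 24.2, 14.8 and 22.1 CPM. All injured samples exceeded 5 of the 6 uninjured ones, and the exception was uninjured 2, the highest of all. The log2 fold change was 0.87 (SE 0.44) and did not pass the threshold (adjusted p = 0.127, exact permutation p = 0.119). Without uninjured 2 it was 1.21 and passed (adjusted p = 0.0222), and it passed as higher in 6 of 32 alternative settings. Among cells with 3% to 5% Malat1 UMIs it was -0.38 (adjusted p = 0.733), with only 7 and 8 cells left in uninjured 5 and 6.

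The 3 cells with the most Slc7a11 UMIs held 72.7% and 68.2% of them in uninjured 1 and 2, and from 20.8% to 42.9% in uninjured 3 to 6. In injured 1 to 4 the top 3 cells held 12.3%, 16.7%, 9.33% and 9.49%. The total number of Slc7a11 UMIs was similar in uninjured 3 and injured 3, at 186 and 193.

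Slc3a2, the heavy chain that carries Slc7a11 and other amino acid transporters to the membrane, was at 36.7, 43.9 and 47.4 CPM in its lowest, median and highest uninjured samples and at 228, 225 and 298 CPM after injury. It rose by 2.54 on the log2 scale (SE 0.13, adjusted p = 5.25e-08). Chac1, an enzyme that degrades glutathione, rose by 5.08 (SE 0.24, adjusted p = 3.40e-08), from at most 4.78 CPM in an uninjured sample to 88.0, 90.3 and 136 CPM. Glutaredoxin, Glrx, rose from at most 35.7 CPM to 122, 140 and 120 CPM (log2 fold change 2.52, adjusted p = 1.96e-05). Lower were Slc1a1, a transporter of glutamate and cysteine (-0.82, adjusted p = 0.00166), and Chac2, a relative of Chac1 (-0.66, adjusted p = 0.00953). In all, 3 of 13 genes of glutathione synthesis, uptake and recycling were higher and 2 lower (38.5% called, beside 43.8% of all genes), with a median of -0.13, and neither Gss, glutathione synthetase (-0.19), nor Gsr, glutathione reductase (0.20), passed the threshold.

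None of 9 tested glutathione S-transferases was higher and 4 were lower (44.4% called, beside 43.8% of all genes), with a median of -0.70. Gsta4, which conjugates products of lipid peroxidation, fell by 2.63 on the log2 scale (adjusted p = 3.58e-05), to 6.31, 3.37 and 6.30 CPM from 20.6 CPM or more. Gstm5 was at -0.70 (adjusted p = 0.00327), Gstt1 at -1.26 (adjusted p = 0.0251) and Gstm7 at -1.01 (adjusted p = 0.0493), and the last passed the threshold in only 13 of 28 alternative settings in which it was tested. The Gstm7 call ended without uninjured 2, 4, 5 or 6, or injured 1, 2 or 4, with adjusted p from 0.0501 to 0.158, and the Gstt1 call without injured 2 (-1.05, adjusted p = 0.0997). In those Gstm7 fits its log2 fold change ran from -1.07 to -0.76. The number of glutathione S-transferases lower was 4 under each scaling tried.

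Hmox1 encodes heme oxygenase, which degrades heme to biliverdin, iron and carbon monoxide (chr8:75820241-75827217, mm39, plus strand). Uninjured samples were at 0.560, 1.88 and 4.08 CPM (lowest, median and highest), and the injured samples at 20.3, 17.8 and 33.3 CPM. These levels rest on 2 to 39 UMIs per uninjured library and on 116, 79 and 248 per injured sample. All injured samples were above all uninjured ones, and uninjured 5 and 6 were the highest of the uninjured group. Hmox1 rose by 3.52 on the log2 scale (SE 0.35, adjusted p = 8.89e-06), or 11.5-fold, and ranked number 311 of 14234 genes from the highest fold change. The difference from the 3 uninjured pairs was 4.09, 3.60 and 2.64.

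Markers of microglia and macrophages, cells in which Hmox1 can be abundant, were examined beside it. The 11 markers analysed summed to 5.60 to 20.1 CPM in the uninjured samples and to 14.9, 20.4 and 8.05 CPM in the injured samples. By group mean P2ry12 was the most abundant uninjured (4.94 CPM) and Cx3cr1 injured (9.66 CPM). Of the 2 that could be tested, P2ry12 was at -1.08 (adjusted p = 0.0780) and Cx3cr1 was higher after injury (log2 fold change 1.36, adjusted p = 0.0230), which passed in 20 of 29 alternative settings that tested it. The call was lost, among others, without injured 1 (1.34, adjusted p = 0.0693) or injured 2 (0.87, adjusted p = 0.170) and in thinned cells (0.89, adjusted p = 0.116), where 3.37% of uninjured and 2.87% of injured cells had a Cx3cr1 UMI. Aif1, with too few counts to be tested, was at 0.939 to 1.58 CPM in the injured samples and at most 0.680 CPM in the uninjured ones. Of the 11 markers, Tmem119, C1qa, C1qc and Tyrobp had no UMI in the injured samples. Among cells without a UMI of any of these markers other than Ctss, the log2 fold change of Hmox1 was 3.44 (adjusted p = 9.24e-06).

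Other genes of heme and iron handling moved in both directions. Ftl1, the light chain of ferritin, was higher (log2 fold change 1.33, adjusted p = 1.56e-04), at 753, 832 and 592 CPM beside at most 375 CPM in an uninjured sample. Fth1, the heavy chain, was lower (-0.95, adjusted p = 0.00647), as were Tfrc, the transferrin receptor (-1.46, adjusted p = 6.17e-05), and the biliverdin reductases Blvra (-1.20, adjusted p = 4.13e-04) and Blvrb (-0.81, adjusted p = 0.0233). Blvrb did not pass without injured 1 (-0.81, adjusted p = 0.0723) or injured 2 (-0.78, adjusted p = 0.0777). Hmox2, the constitutive heme oxygenase, was at -0.52 (adjusted p = 0.135) with overlapping groups. The list had 2 of 10 tested genes higher and 4 lower, beside 21.3% and 22.5% of all genes, with a median of -0.43.

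Hmox1, Txnrd1, Srxn1, Gclc, Gclm and Nqo1 are textbook targets of the transcription factor Nrf2, encoded by Nfe2l2. Among the regulators of Nrf2, 4 of 8 were higher, beside 21.3% of all genes, and none was lower, with a median log2 fold change of 0.50. Bach1, a repressor that competes with Nrf2, rose by 2.24 (adjusted p = 1.94e-05), from at most 17.9 CPM to 69.3, 61.3 and 70.4 CPM. Its small Maf partners Mafk (2.29, adjusted p = 5.12e-06) and Mafg (0.60, adjusted p = 0.00679) were higher, as was Sqstm1, an autophagy receptor that binds Keap1 (0.88, adjusted p = 0.00109). Nfe2l2 itself was at -0.51 (adjusted p = 0.0559) with no overlap between the groups, and passed as lower in 10 of 32 alternative settings, among them without uninjured 5 and 6 (-0.57, adjusted p = 0.0283), while Keap1 was at 0.08 (adjusted p = 0.637). The count of lower regulators was 1 with DESeq2 and 2 with library totals alone or upper-quartile scaling, beside 4 higher in each.

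All 9 tested genes of the list of other Nrf2 targets and NADPH supply passed the threshold, beside 43.8% of all genes, 8 of them lower and 1 higher, with a median of -0.65. The counts were the same under each scaling tried. Nqo1, a quinone reductase, fell by 1.71 on the log2 scale (adjusted p = 0.00169), to 2.28, 0.674 and 1.48 CPM. Also lower were Idh1 (-0.94), Pgd (-0.88), Aldh2 (-0.66), Tkt (-0.65), G6pdx (-0.64), Abcc1 (-0.57) and Me1 (-0.37). Leaving out 1 library ended the call of G6pdx without uninjured 3, uninjured 4 or injured 1 (adjusted p = 0.0515, 0.0506 and 0.0727) and of Me1 without injured 1 (0.0739). The log2 fold changes were then -0.59, -0.60 and -0.67 for G6pdx and -0.35 for Me1. Abcc1 did not pass without uninjured 2, 3 or 4, or injured 1 or 2 (adjusted p = 0.0551, 0.0638, 0.0620, 0.0699 and 0.105). Its log2 fold change in those fits ran from -0.59 to -0.48. Taldo1, a transaldolase of the pentose phosphate pathway, was the gene that was higher (0.97, adjusted p = 7.01e-04).

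Of 5 tested regulators of ferroptosis only Gch1, which starts the synthesis of tetrahydrobiopterin, was higher (3.69, adjusted p = 8.19e-05), from at most 0.680 CPM to 3.33, 2.70 and 4.69 CPM, and none was lower, with a median of -0.03. In the list of selenoprotein synthesis, which also holds selenoproteins, 2 of 8 were lower and none was higher, with a median of -0.04. The 2 were Selenom, itself a selenoprotein (-1.22, adjusted p = 0.00826), and the synthesis gene Pstk (-0.42, adjusted p = 0.0204). Pstk did not pass without injured 1 (-0.39, adjusted p = 0.0847). Metallothioneins and methionine sulfoxide reductases had 1 of 7 higher and 2 lower, with a median of -0.02. Mt2 rose by 1.50 on the log2 scale (adjusted p = 1.79e-04), while Mt3, the form typical of brain, fell by 2.64 (adjusted p = 0.00231) and Msrb2 by 1.04 (adjusted p = 0.00968). Msrb2 was not past the threshold without injured 1 (-0.925, adjusted p = 0.0530). Mt3 was highest in an uninjured sample at 993 CPM and lowest at 227 CPM, beside 69.3, 94.6 and 59.4 CPM after injury.

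Among 6 other redox protectors 2 were higher and 1 was lower, with a median of 0.32. Sesn2, a stress-induced sestrin, rose by 2.73 on the log2 scale (adjusted p = 2.77e-07), from at most 6.80 CPM to 37.2, 31.5 and 37.3 CPM. Sesn1 was higher (0.55, adjusted p = 0.00355), though at -0.06 among cells with 3% to 5% Malat1 UMIs, and Sesn3 lower (-0.60, adjusted p = 0.00158). Over all 13 lists, 95 of 108 genes were tested, and 19 were higher and 26 lower (47.4% called, beside 43.8% of all genes), with a median of -0.04 beside -0.03 for all genes tested. Without the 10 genes chosen by symbol, 17 of 85 were higher and 24 lower, with a median of -0.07.

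Several calls of list genes depended on the setting. The setting of 3% to 5% Malat1 UMIs kept only 7 and 8 cells in uninjured 5 and 6, and 10740 genes were tested in it. Among cells with 3% to 5% Malat1 UMIs the calls of Tkt (-0.29), Aldh2 (-0.33), G6pdx (-0.52), Blvra (-0.46), Blvrb (-0.44), Fth1 (-0.47), Gstm5 (-0.35), Slc1a1 (-0.48), Chac2 (-0.43), Msrb2 (-0.46), Pstk (-0.35), Sesn3 (-0.23) and Sqstm1 (0.49) were lost, with adjusted p from 0.0583 to 0.458. With similar libraries summed, Prdx6 (0.55), Gstm7 (-0.98), Chac2 (-0.64), Msrb2 (-1.01), Blvrb (-0.81), Fth1 (-0.97) and Mafg (0.65) did not pass. Nor did G6pdx (-0.75), Me1 (-0.38), Abcc1 (-0.54), Pstk (-0.44), Sesn1 (0.50) and Sesn3 (-0.59). The log2 fold changes of these genes were about as large as in the main fit. Restriction to cells without markers of another class kept 28 to 119 cells per uninjured library. There Gpx7 (1.21), Prdx6 (0.66), Selenom (-1.15), G6pdx (-0.68) and Pstk (-0.43) did not pass, though about as large as in the main fit. Taldo1 (0.64) and Abcc1 (-0.48) were smaller and did not pass either. In thinned cells Nqo1 (-1.16), Prdx6 (0.52), Gstt1 (-1.37), Me1 (-0.34), Abcc1 (-0.55) and Pstk (-0.24) did not pass. With injured 1 and 2 alone, Prdx6 (0.66), Gstm7 (-1.25), Gstt1 (-1.17), Blvrb (-0.81), G6pdx (-0.42), Me1 (-0.35), Abcc1 (-0.60) and Pstk (-0.39) did not pass. Against uninjured 5 and 6 alone Gpx7 (0.80), Prdx6 (0.14) and Abcc1 (-0.19) lost their calls, while Prdx2, Txnrd2, Gclm and Hmox2 passed as lower. Without uninjured 5 and 6, Gpx3, Prdx3, Ccs and Gsr passed as higher and Gss as lower.

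**Figure D3:**
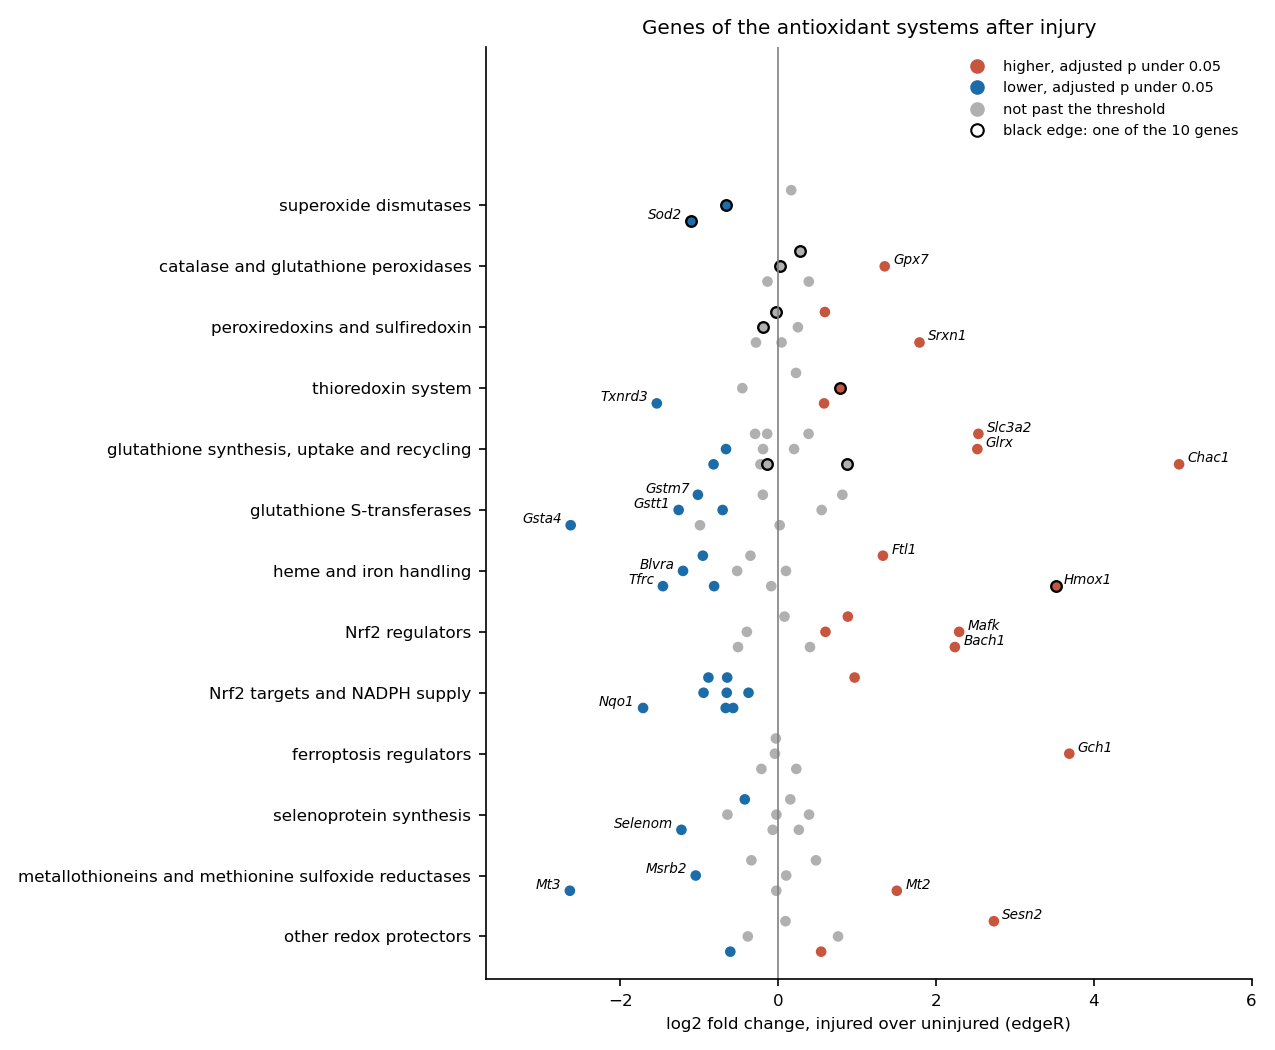
Log2 fold change (injured over uninjured) of each tested gene of the 13 antioxidant lists, colored by direction where the adjusted p was under 0.05, with black edges for the 10 genes chosen by symbol. Chac1 at 5.08 was the highest and Mt3 at -2.64 the lowest, and 8 of 9 genes of the list of other Nrf2 targets and NADPH supply were below 0. The Nrf2 targets Hmox1 (3.52), Srxn1 (1.79), Txnrd1 (0.79), Gclc (-0.13) and Gclm (-0.22) stand in other lists.

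Promoter sequence was examined for the 10 genes and for Srxn1, Slc3a2 and Chac1, which were higher. RefSeq promoters (GRCm38.p6 table, placed in mm39 by exact match) were found for 8 of the 10 genes, all but Hmox1 and Gclc, and the 250 bases before each RefSeq start were searched on both strands. GENCODE exons cover 242 of these bases in Sod1 and all 250 in Chac1 and Prdx5, so matches there are not shown to lie before the gene. The letters searched were TGACNNNGC and TGAGNNNGC, forms of the antioxidant response element, TGACTCAGC, which is 1 form of TGACNNNGC, the cyclic AMP response element TGACGTCA, and TGATGCAA, a composite element bound by C/EBP and ATF proteins. Of 32851 promoters, 10.2%, 14.4%, 0.390%, 1.55% and 0.792% held them in that order. Counted by gene, the shares were 11.5%, 16.3%, 0.426%, 1.77% and 0.918% of 27025 genes, some of which have several promoters. TGACNNNGC was found in 3 of the 8 genes, or 3 of their 13 promoters. These genes were Prdx1, Txnrd1 and Sod1, 1 of which was higher and 1 lower after injury. TGACTCAGC was found in Prdx1, TGAGNNNGC and TGATGCAA in Slc7a11, and TGACGTCA in none.

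The upstream sequences are shown for Slc7a11 and Txnrd1 and, since it was the most changed gene of the peroxiredoxin list, Srxn1, with a short stretch of Prdx1. Capitals mark the matched letters on either strand. The stretches are chr3:50398063-50398312 (minus strand), chr10:82694790-82695039 (plus strand, the second of 3 starts), chr2:151947194-151947443 (plus strand) and chr4:116542643-116542691 (plus strand) of mm39.
Slc7a11: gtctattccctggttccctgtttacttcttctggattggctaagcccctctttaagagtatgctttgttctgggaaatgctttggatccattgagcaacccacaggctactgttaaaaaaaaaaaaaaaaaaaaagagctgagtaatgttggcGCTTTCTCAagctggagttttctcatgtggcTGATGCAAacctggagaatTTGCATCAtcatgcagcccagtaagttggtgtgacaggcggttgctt
Txnrd1: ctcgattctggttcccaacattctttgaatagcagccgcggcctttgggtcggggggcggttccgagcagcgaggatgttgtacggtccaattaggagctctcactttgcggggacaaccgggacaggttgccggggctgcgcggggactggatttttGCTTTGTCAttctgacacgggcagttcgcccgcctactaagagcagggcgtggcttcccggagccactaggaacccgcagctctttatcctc
Srxn1: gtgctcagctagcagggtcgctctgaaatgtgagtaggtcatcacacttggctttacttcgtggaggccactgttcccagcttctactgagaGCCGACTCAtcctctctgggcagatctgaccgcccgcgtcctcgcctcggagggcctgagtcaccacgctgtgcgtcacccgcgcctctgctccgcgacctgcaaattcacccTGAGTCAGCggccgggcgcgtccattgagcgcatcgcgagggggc
Prdx1: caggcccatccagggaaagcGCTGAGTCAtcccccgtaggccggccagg

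Slc7a11 held TGATGCAA on both strands and 1 copy of TGAGNNNGC between 250 bases upstream and the start, and Srxn1 held TGAGNNNGC 2 times. Chac1 also held TGATGCAA. These matches are descriptions of sequence, and binding was not measured.

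The share of cells with a UMI was compared after thinning each cell to 8000 UMIs, which left out 29 uninjured and 233 injured cells with fewer. Hmox1 had a UMI in 1.78% ± 1.48 of uninjured cells (SD, n = 6) and in 17.1% ± 5.35 of injured cells (SD, n = 3). For Slc7a11 the shares were 4.32% ± 1.42 and 13.3% ± 3.71. Trpm1, a gene of bipolar cells that RGCs lack, was taken as a background in the same cells, at 0.385% uninjured and 0.298% injured. Markers of other cell types varied around it. In uninjured and injured cells Grm6 was at 0.0659% and 0%, Pcp2 at 1.57% and 0%, Sag at 2.53% and 1.87%, and P2ry12 at 4.53% and 1.85%. The uninjured shares of Hmox1 and Slc7a11 are therefore not shown to exceed background.

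Detection of Sod1 was 65.9% ± 4.54 in uninjured and 49.7% ± 2.41 in injured thinned cells, and that of Sod2 80.7% ± 5.75 and 52.0% ± 4.31. Txnrd1 went the other way, with 35.9% ± 8.45 and 48.3% ± 2.92. The remaining genes were detected in 36.8% and 40.0% (Gpx1), 89.4% and 90.6% (Gpx4), 66.5% and 71.1% (Prdx1), 85.7% and 75.7% (Prdx5), and 32.8% and 31.3% (Gclc) of uninjured and injured cells. Each library had a median of 5 of the 10 genes detected per thinned cell, and the summed UMIs of the 10 genes averaged 10.1 to 12.9 per cell in uninjured 1 to 4, 16.3 and 17.0 in uninjured 5 and 6, and 10.6 to 11.6 in the injured libraries.

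At their own depth, uninjured cells had a median of 20437 to 34337 UMIs per library and injured cells 11257 to 14695. The unthinned shares of uninjured and injured cells were 5.66% and 25.9% for Hmox1, 9.97% and 21.4% for Slc7a11, 88.8% and 68.5% for Sod1, 96.6% and 68.6% for Sod2, and 0.946% and 0.548% for Trpm1. For Txnrd1 they were 70.2% and 67.0%, an order opposite to that of its CPM, and no order is read from them. The remaining unthinned shares were 68.5% and 57.3% (Gpx1), 97.4% and 92.7% (Gpx4), 87.9% and 84.7% (Prdx1), 95.1% and 85.4% (Prdx5), and 70.7% and 46.0% (Gclc). Depth and group cannot be told apart in the unthinned shares.

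**Figure D4:**
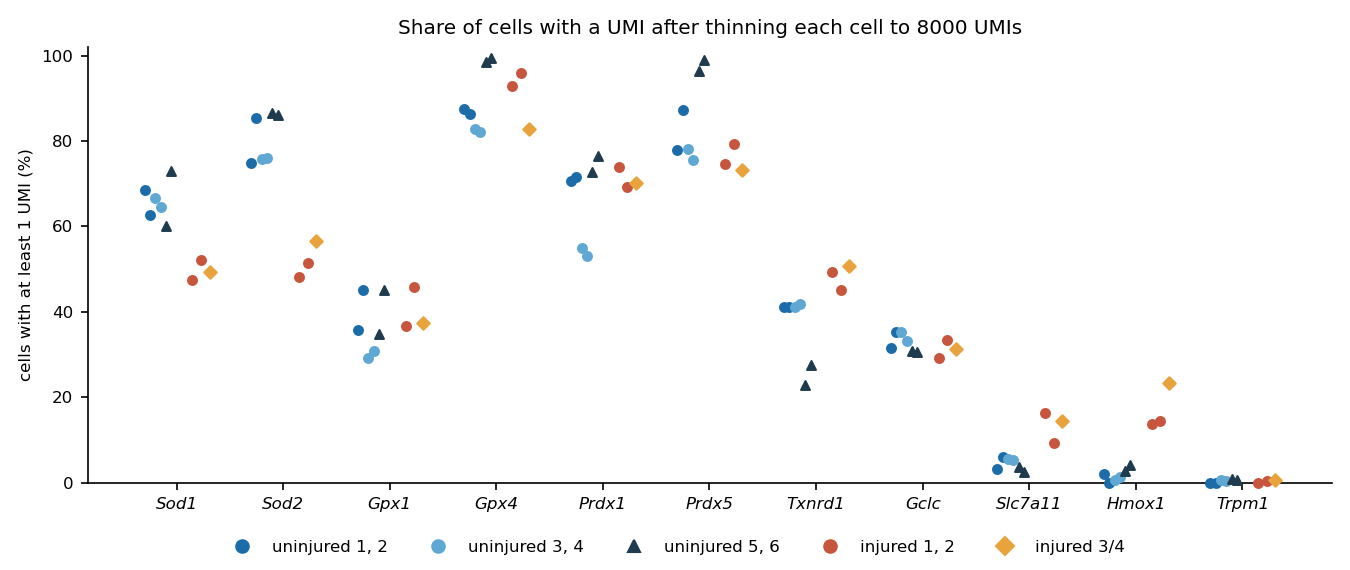
Percent of cells with at least 1 UMI of each of the 10 genes and of Trpm1 per sample, after thinning every cell to 8000 UMIs, for 6 uninjured and 3 injured samples. Hmox1 averaged 1.78% in uninjured and 17.1% in injured cells, and Trpm1 was at 0.791% or less in every sample.

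Intrinsically photosensitive RGCs, which survive axon injury well, were approximated by cells with at least 3 thinned UMIs of Opn4, the melanopsin gene. There were 43 such uninjured cells, and 24 in injured 1, 2 and 3. Slc7a11 had 0 UMIs in both sets, where 3.74 and 4.40 would be counted at the rate of the other cells. With 43 and 24 cells pooled over libraries, a count of 0 sets no limit on the share of Opn4 cells that express Slc7a11. Hmox1 had 1 UMI in the uninjured and 0 in the injured Opn4 cells, the latter beside 5.34 at the rate of the other cells.

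Prdx1 had 111 UMIs in uninjured Opn4 cells beside 52.7 at the rate of the other cells, and 89 beside 32.4 in injured ones. In injured Opn4 cells Sod1 had 36 beside 16.7, Gpx1 24 beside 13.1, Gclc 16 beside 9.31, Sod2 30 beside 18.2, Prdx5 54 beside 51.6, Gpx4 82 beside 90.7 and Txnrd1 11 beside 16.7. In uninjured ones the same genes had 67 beside 51.8, 29 beside 18.8, 18 beside 17.9, 77 beside 75.4, 125 beside 116, 157 beside 165 and 29 beside 20.4. Only uninjured 3 had 10 or more such cells, too few libraries for a test. With a minimum of 5 such cells per library, 5 uninjured libraries qualified. The mean log2 ratio of Prdx1 in Opn4 cells over other cells was then 1.02, higher in 5 of 5 libraries. The exact two-sided sign-flip p of 0.0625 is the smallest that 5 libraries allow. For Gpx4 the ratio was -0.28, lower in 5 of 5 (p = 0.0625, exact), and no ratio is read for Slc7a11, whose count in Opn4 cells was 0. Apart from Slc7a11, no other gene was at that p-value. Txnrd1 and Gclc had mean log2 ratios of -0.68 and -1.11 with 3 of 5 libraries higher, while their pooled uninjured counts above were not lower.

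Atf3 marks axon injury in RGCs, and most injured cells had at least 1 thinned UMI of it, 272 of 306 in injured 1 and 216 of 251 in injured 2. CPM of cells split in this way are scaled by thinned UMIs alone. Hmox1 was at 20.7, 22.6 and 40.7 CPM in the Atf3-positive cells of injured 1, injured 2 and injured 3/4, and at 18.4, 14.3 and 5.92 CPM in Atf3-negative cells. Gpx4 was at 519, 578 and 453 CPM in the positive cells and 371, 421 and 236 CPM in the negative ones. Prdx5 was also higher in positive cells of each sample, at 235, 274 and 328 CPM beside 173, 196 and 191 CPM. The negative cells held only 5, 4 and 3 Hmox1 UMIs, and the split was not tested.

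For each of the 10 genes, the 3 other tested genes of at least moderate abundance with the most similar profile over the 9 samples were found by the root mean square difference of centred log2 CPM. Nearest to Sod1 were Slc39a10 (0.048), Zfp950 (0.074) and Tacc2 (0.083), and nearest to Sod2 were Fbxo9 (0.051), Yaf2 (0.079) and Lamtor3 (0.084). Txnrd1 was closest to Por (0.082), Specc1l (0.087) and Fam13b (0.097). Gclc was closest to Ggps1, Vps35 and Ttc19, Gpx1 to Ilf2, Eif4a3 and Snx10, and Gpx4 to Churc1, Zfp593 and Fkbp8. Prdx1 was closest to Paip1, Csnk2b and Med9, and Prdx5 to Stmn3, Ndufa8 and Mpc1. Hmox1 and Slc7a11 had no close match: Pkib (0.36), Mthfd2 (0.43) and Cd63 (0.47) came nearest to Hmox1, and Srrm4, Prkg1 and Galnt7 (0.50, 0.51 and 0.51) to Slc7a11.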

How the data were processed

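The 10 deposited matrices hold UMI counts per gene and cell, which the authors made with Cell Ranger 7.0.1 on mm39 according to the submitters' processing notes. The paper names an earlier version of Cell Ranger. The authors' limits per cell (500 genes or more, no more than 20% mitochondrial UMIs, no more than 150000 UMIs) were met by every deposited cell, and no doublet caller was run. Counts were added up by library, injured 3 and 4 were averaged with rounding, and 6 uninjured and 3 injured samples were compared with edgeR 4.0.16 (TMM factors, low counts filtered by group, robust quasi-likelihood F test) in R 4.3.3. P-values were adjusted by Benjamini-Hochberg over 14234 genes with a threshold of 0.05. Exact two-sided permutation tests used scipy 1.17.1. CPM are per TMM-scaled library size, and in split cells they are scaled by thinned UMIs alone. The method was tested on simulated data.

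Named are the 10 genes, genes of the 13 lists past the threshold with a log2 fold change of at least 1 in size, the families of the 10 genes, and for each of the 10 genes the 3 tested genes, with a mean log2 CPM of 5 or more, of most similar centred profile. List genes with smaller changes, Nfe2l2, Keap1, Ccs, Cat, Gss and Gsr, were named after their values were seen. The members and lists were chosen with earlier results of these data known. Gene positions are from GENCODE vM39 on mm39. Alternatives covered DESeq2 1.42.0 and limma 3.58.1 (voom), scaling, filters on genes and cells, and libraries left out. The background gene Trpm1 was chosen after its values were seen.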

Additional observations from a re-analysis of the deposited data

Results flagged for a closer look

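The CPM of Gstm7 in uninjured 6, 8.15, was far above the other uninjured samples, the nearest of which was at 4.78 CPM. The CPM of Nfe2l2 in uninjured 2, 45.1, was likewise far above the nearest, 29.0 CPM, and so was that of Keap1 in uninjured 2, 54.3 CPM beside 45.0. These are 3 of 65 genes checked, and chance alone marks about 1 in 20.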

How the results depend on the processing

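Results were recomputed under 32 alternative settings, 27 planned and 5 added after seeing the data: without uninjured 5 and 6, with those alone, and in cells without Xist, microglia markers or mCherry. The 6237 genes past the threshold became 3516 in cells with 3% to 5% Malat1 and 4191 with similar libraries summed. The 4 of 10 chosen genes past it became 7 with limma-voom and 8 with uninjured 5 and 6 alone. Other such counts stayed within 1.5 times the main values, and leaving out 1 library gave 4 to 5 of the 10. Sod2 passed in 32 of 32 settings and Hmox1 in 31 of the 31 that tested it. Over 99 named genes, 2806 of 3143 log2 fold changes kept direction and side of the threshold, 153 lost it, 63 gained it and 121 changed sign. The cause was not tested.

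Some log2 fold changes changed sign. With library totals alone they were Gpx4 -0.022 and Prdx4 -0.019. With upper-quartile factors they were Gpx4 -0.015 and Prdx4 -0.0043. With all 10 libraries separate they were Gpx4 -0.029, Prdx1 0.020 and Ndufa8 0.0037. With similar libraries summed they were Gpx4 -0.051 and Prdx1 0.0024. With at most 10% mitochondrial UMIs this was Gpx4 -6.4e-06. In cells without markers of another class they were Gpx4 -0.068, Prdx1 0.38, Prdx4 -0.14 and Gsr -0.25. In cells thinned to 8000 UMIs they were Gpx4 -0.027, Prdx1 0.038, Gclc 0.022, Prdx4 -0.093, Churc1 0.059 and Ggps1 0.054. With uninjured 5 and 6 alone they were Gpx4 -0.58, Prdx3 -0.36, Prdx4 -0.30, Txn2 -0.41, Ccs -0.17, Gss 0.24, Gsr -0.13, Fkbp8 -0.46 and Csnk2b -0.41. In cells without Xist they were Gpx4 -0.0042 and Keap1 -0.033. With limma-voom they were Prdx1 0.22, Prdx5 0.058, Prdx2 0.024, Churc1 0.43, Zfp593 0.43, Paip1 0.13, Med9 0.33, Stmn3 0.16, Ndufa8 0.10 and Mpc1 0.14. In cells with 3% to 5% Malat1 they were Prdx1 0.17, Prdx5 0.43, Slc7a11 -0.38, Prdx2 0.11, Gclm 0.12, Sesn1 -0.061, Cat 0.34, Churc1 0.60, Zfp593 0.38, Med9 0.42, Stmn3 0.16, Ndufa8 0.43 and Mpc1 0.19. Without uninjured 5 and 6 they were Prdx1 0.28, Prdx5 0.21, Prdx2 0.024, Churc1 0.40, Zfp593 0.41, Paip1 0.18, Med9 0.33, Stmn3 0.30, Ndufa8 0.28 and Mpc1 0.31. With the replicate block they were Prdx1 0.17, Prdx5 0.17, Keap1 -0.0053, Churc1 0.32, Zfp593 0.29, Paip1 0.076, Med9 0.23, Stmn3 0.25, Ndufa8 0.25 and Mpc1 0.28. In libraries 1 to 3 without the replicate block they were Prdx1 0.16, Prdx5 0.18, Keap1 -0.0079, Churc1 0.33, Zfp593 0.30, Paip1 0.064, Med9 0.22, Stmn3 0.25, Ndufa8 0.26 and Mpc1 0.29. With injured 1 and 2 alone they were Prdx3 -0.12, Churc1 0.13, Zfp593 0.037 and Csnk2b -0.0024. With mCherry-free cells of injured 1 and 2 they were Prdx3 -0.11, Churc1 0.14, Zfp593 0.032 and Csnk2b -0.0055. In cells without microglia markers this was Prdx4 -0.022. With 1 library left out, the ranges of genes that changed sign were Gpx4 -0.11 to 0.20, Prdx1 -0.11 to 0.093, Prdx4 -0.045 to 0.16, Churc1 -0.14 to 0.14, Zfp593 -0.15 to 0.13, Paip1 -0.15 to 0.012, Csnk2b -0.028 to 0.17, Med9 -0.14 to 0.099, Stmn3 -0.18 to 0.041, Ndufa8 -0.12 to 0.078 and Mpc1 -0.14 to 0.075.

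The replicate block, on libraries 1 to 3 of each group, gave 6306 genes, 5 of the 10 chosen genes and 51 list genes past the threshold, and the same libraries without it 6615, 5 and 53. Same-numbered libraries correlated at r = -0.06, 0.07 and -0.06, and were not taken as paired. The planned test of Opn4 and alpha cells with at least 10 cells per library could not be run, since 1 library and none qualified. The sums are limited by depth for Hmox1, with 2 UMIs in its lowest uninjured library.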

Other observations

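Injured cells were also split by Hmox1, with CPM scaled by thinned UMIs alone. Cells with at least 1 thinned UMI of Hmox1 numbered 42 of 306 in injured 1 and 36 of 251 in injured 2. They numbered 104 of 460 in injured 3 and 86 of 359 in injured 4. The injury gene Atf3 was at 857, 1056 and 807 CPM in the Hmox1-positive cells of injured 1, injured 2 and injured 3/4, beside 701, 674 and 638 CPM in negative cells. Sod1 was at 56.5, 86.8 and 104 CPM in positive cells and at 85.7, 91.9 and 92.9 CPM in negative ones. Hmox1 was at 20, 11.7 and 39 CPM in cells with an mCherry UMI and at 20.5, 22.8 and 19.3 CPM in cells without. Before thinning, 311 of 338 cells in injured 1 and 232 of 273 in injured 2 had no mCherry UMI. In injured 3 and 4 they were 74 of 527 and 74 of 471. The smaller side of this split thus rests on few cells in each sample, and the split was not tested.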
